A study of Mus with 16 samples.

Results

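The cyclin-dependent kinase (CDK) inhibitor genes were examined in postnatal day 6 (P6) mouse forebrain, dissected as cortex and hippocampus, across 4 groups of 4 animals. The groups were wild-type (WT) males, *Kdm5c* hemizygous knockout males (*Kdm5c*-KO), WT females and *Kdm5c* heterozygous females (*Kdm5c*-HET). *Kdm5c* is an X-linked gene for a histone H3 lysine 4 demethylase. The mutant allele, a germline deletion of exons made with Cre, was kept on a mixed genetic background, in part C57BL/6J, that all groups shared, and the paper's methods state that the animals came from several litters. *Kdm5c* itself was not analysed here, so the genotypes are those of the labels.

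The family has 7 members among the 54219 genes of the count table, and they were selected by Ensembl identifier. The family was chosen on the behaviour of *Cdkn1c*, whose level was higher in the mutants of both sexes. The values of *Cdkn1c* in the mutant comparisons are therefore given as a description, with no test, and the tests concern the other members. Of the 7 genes, 6 passed the filter on low counts, and *Cdkn2a* did not.

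CDK inhibitors are small proteins that hold back the kinases that drive the cell cycle. The CIP/KIP family, *Cdkn1a* (p21), *Cdkn1b* (p27) and *Cdkn1c* (p57), binds several cyclin-CDK complexes. The INK4 family, *Cdkn2a* (p16), *Cdkn2b* (p15), *Cdkn2c* (p18) and *Cdkn2d* (p19), binds the CDK4 and CDK6 kinases that work with D-type cyclins. In the developing brain, members of both families act when progenitors leave the cell cycle, and *Cdkn1b*, *Cdkn1c* and *Cdkn2d* are known to be expressed in postmitotic neurons. *Cdkn1c* is imprinted and is transcribed mainly from the maternal allele. *Cdkn2a* also encodes p19ARF, which stabilises p53, and *Cdkn1a* is a classical p53 target.

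In the RefSeq annotation of GRCm38.p6, the assembly behind mm10, *Cdkn1c* (ENSMUSG00000037664) lies at chr7:143458339-143461059, 31288 bp from *Kcnq1*, in the imprinted *Kcnq1* domain. *Cdkn1a* (ENSMUSG00000023067) lies at chr17:29090979-29100722 and *Cdkn1b* (ENSMUSG00000003031) at chr6:134920401-134925525. *Cdkn2a* (ENSMUSG00000044303) at chr4:89274473-89294619 and *Cdkn2b* (ENSMUSG00000073802) at chr4:89306289-89311032 are neighbours, 11669 bp apart. The noncoding RNA gene *Gm12610* overlaps *Cdkn2b*, and because the strand setting of the counting is not stated, reads of the pair may not be separated. *Cdkn2c* (ENSMUSG00000028551) lies at chr4:109660876-109666756, and *Cdkn2d* (ENSMUSG00000096472) at chr9:21288459-21291421, 489 bp from *Kri1*. These values are read counts per gene, so reads of all transcripts and of both parental alleles of a gene are summed.

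The libraries held 21513783 to 30063352 counts. Levels are given as CPM, counts scaled to the TMM-normalized library size, which do not correct for transcript length, so levels are compared between animals and not between genes. Animals are named by the number and letter of their label. The letter, D or E, is explained in no source used here. There were 8 D and 8 E animals, with 1 E animal among the WT males, 2 among the *Kdm5c*-KO, 2 among the WT females and 3 among the *Kdm5c*-HET. *Ttr*, a choroid plexus gene, had over 1000 counts in 6 animals, which were WT males 2D and 5D, WT females 1D and 3D, and *Kdm5c*-HET 8E and 9E. No *Kdm5c*-KO animal was among them. In bulk tissue, fewer cells of a type and less RNA per cell cannot be told apart.

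*Cdkn1c* was at 13.4, 12.2, 11.9 and 9.91 CPM in WT males 1E, 2D, 5D and 7D, and at 52.5, 59.0, 36.9 and 40.0 CPM in *Kdm5c*-KO males 2E, 3E, 4D and 6D. It was at 9.49, 11.1, 11.5 and 17.4 CPM in WT females 1D, 3D, 4E and 5E, and at 26.5, 32.8, 26.3 and 23.6 CPM in *Kdm5c*-HET females 6E, 8E, 9D and 9E. Every *Kdm5c*-KO animal lay above every *Kdm5c*-HET animal, and every *Kdm5c*-HET animal lay above every WT animal, whereas the WT groups overlapped. Among all genes tested, 5.04% had every *Kdm5c*-KO animal above every WT male. Every *Kdm5c*-HET animal lay above every WT female for 2.78%. No share was computed for *Kdm5c*-KO above *Kdm5c*-HET, groups that also differ in sex. These levels rested on 221 to 345 counts in WT males, 902 to 1672 in *Kdm5c*-KO, 275 to 397 in WT females and 557 to 827 in *Kdm5c*-HET.

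The group means of *Cdkn1c* were 11.9 ± 1.46 CPM (SD, n = 4) in WT males, 47.1 ± 10.4 in *Kdm5c*-KO, 12.4 ± 3.47 in WT females and 27.3 ± 3.89 in *Kdm5c*-HET. The mean was 3.97-fold higher in *Kdm5c*-KO than in WT males, with a fitted Log2FC of 1.99 (SE 0.166, 95% interval 1.64 to 2.34). In females it was 2.21-fold higher, with a fitted Log2FC of 1.15 (SE 0.167, 95% interval 0.81 to 1.50). In CPM, the mutant mean exceeded the WT mean by 35.2 in males and 14.9 in females. The fitted male response exceeded the female response by 0.84 on the log2 scale (SE 0.234, 95% interval 0.35 to 1.33). Because the family was chosen on these values, the intervals of *Cdkn1c* describe the spread and are not a test, also not of a sex difference. Without the 6 animals high in *Ttr*, the Log2FC was 2.02 in males and 0.87 in females. The levels of *Cdkn1c* in the *Ttr*-high WT males, 2D and 5D, lay between those of WT males 1E and 7D. In females, the *Ttr*-high WT animals 1D and 3D had the lowest levels of *Cdkn1c* in their group, and of the *Ttr*-high *Kdm5c*-HET animals 8E had the highest level and 9E the lowest. Animals 1D and 3D were also the only D animals among the WT females, so the exclusion left only E animals there. In that group, *Ttr* and the letter of the label cannot be told apart.

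**Figure D1:**
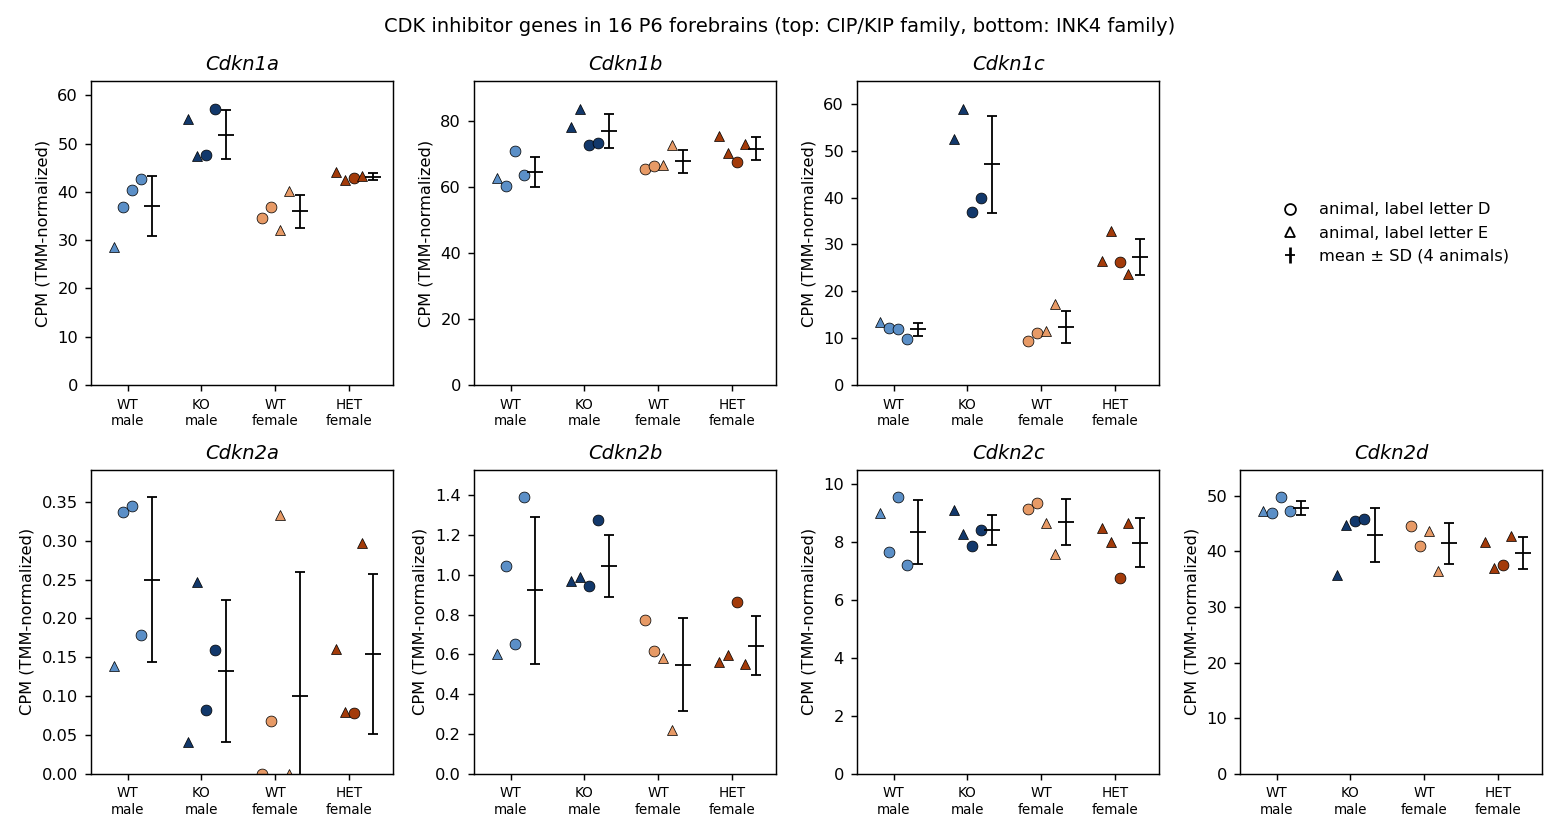
TMM-normalized CPM of the 7 CDK inhibitor genes (1 panel each, linear axis from 0) in each animal of the 4 groups, as circles for label letter D and triangles for E, with the mean ± SD of 4 animals as bars (the lower bar of *Cdkn2a* in WT females is cut at 0). *Cdkn1c* was at 36.9 to 59.0 CPM in *Kdm5c*-KO, 23.6 to 32.8 in *Kdm5c*-HET and 9.49 to 17.4 in WT animals.

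The question asked next was whether the other CDK inhibitors changed in *Kdm5c*-KO males. In the edgeR quasi-likelihood test, *Cdkn1a* and *Cdkn1b* were upregulated, and none of the 5 members tested was downregulated. The 2 of 5 compare with 3.55% of the 17866 genes tested that were called higher, and 1.69% that were called lower, at an adjusted p-value (q) under 0.1. Both are CIP/KIP genes, and no INK4 gene was called. Leaving out *Cdkn1c*, 4 of the 5 fitted members had a Log2FC above 0, of which *Cdkn2c* was close to 0, and their median was 0.18 against a median of -0.01 over all genes tested.

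Both calls depended on which animals entered the test. Without WT males 2D and 5D alone, both remained called (q = 0.0411 for *Cdkn1a* and q = 0.0507 for *Cdkn1b*, edgeR). Without all 6 *Ttr*-high animals, which also removed females from the shared estimate of the spread, neither was called (q = 0.117 and q = 0.126, edgeR), while their Log2FC were 0.54 and 0.29. Both exclusions were chosen after the data were seen.

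*Cdkn1a* was at 28.5, 36.9, 40.5 and 42.6 CPM in WT males 1E, 2D, 5D and 7D, and at 55.1, 47.5, 47.6 and 57.2 CPM in *Kdm5c*-KO males 2E, 3E, 4D and 6D. The groups did not overlap, although the WT males were spread widely and 1E was the lowest. The means were 37.1 ± 6.21 CPM and 51.9 ± 5.05 CPM (SD, n = 4 each), a 1.40-fold difference. The Log2FC was 0.48 (SE 0.0956, 95% interval 0.28 to 0.68, edgeR q = 0.00618).

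*Cdkn1b* was at 62.8, 60.3, 70.9 and 63.6 CPM in the WT males in the same order, and at 78.1, 83.7, 72.6 and 73.2 CPM in the *Kdm5c*-KO males. The groups did not overlap, but WT male 5D lay close under *Kdm5c*-KO 4D. The means were 64.4 ± 4.54 CPM and 76.9 ± 5.15 CPM (SD, n = 4 each), a 1.19-fold difference. The Log2FC was 0.26 (SE 0.0581, 95% interval 0.13 to 0.38, edgeR q = 0.0159). Among all genes tested, 5.04% had every *Kdm5c*-KO animal above every WT male.

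*Cdkn2d*, an INK4 gene, did not pass the threshold in males. It was at 47.3, 46.9, 49.7 and 47.2 CPM in WT males and at 35.7, 44.7, 45.4 and 45.9 CPM in *Kdm5c*-KO. Every *Kdm5c*-KO animal lay below every WT male, which held for 3.87% of all genes tested, and 2E was far below the other 3 mutants. The means were 47.8 ± 1.31 CPM and 42.9 ± 4.83 CPM (SD, n = 4 each). The Log2FC was -0.15 (SE 0.0763, 95% interval -0.31 to 0.01, edgeR q = 0.322). An exact two-sided permutation test on *Cdkn2d* alone gave 0.0286, the smallest p-value that 4 animals against 4 allow. Groups that do not overlap always give this value, so it adds nothing to the lack of overlap. Without *Kdm5c*-KO 2E, the Log2FC of *Cdkn2d* was -0.08 (edgeR q = 0.703).

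*Cdkn2c* ranged from 7.22 to 9.54 CPM in the WT males, and the *Kdm5c*-KO range of 7.86 to 9.09 CPM fell inside it. Its Log2FC was 0.01 (95% interval -0.22 to 0.23, edgeR q = 0.984). *Cdkn2b* was at 0.600, 1.05, 0.655 and 1.39 CPM in WT males and at 0.970, 0.988, 0.942 and 1.27 CPM in *Kdm5c*-KO. The groups overlapped, and its Log2FC of 0.18 had a 95% interval of -0.49 to 0.85 (edgeR q = 0.842). Leaving out a single WT male gave 0.03 for 1E, 0.04 for 5D and 0.44 for 7D. With 5 to 32 counts per animal over the 16 animals, the interval for *Cdkn2b* was the widest of the fitted members.

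**Figure D2:**
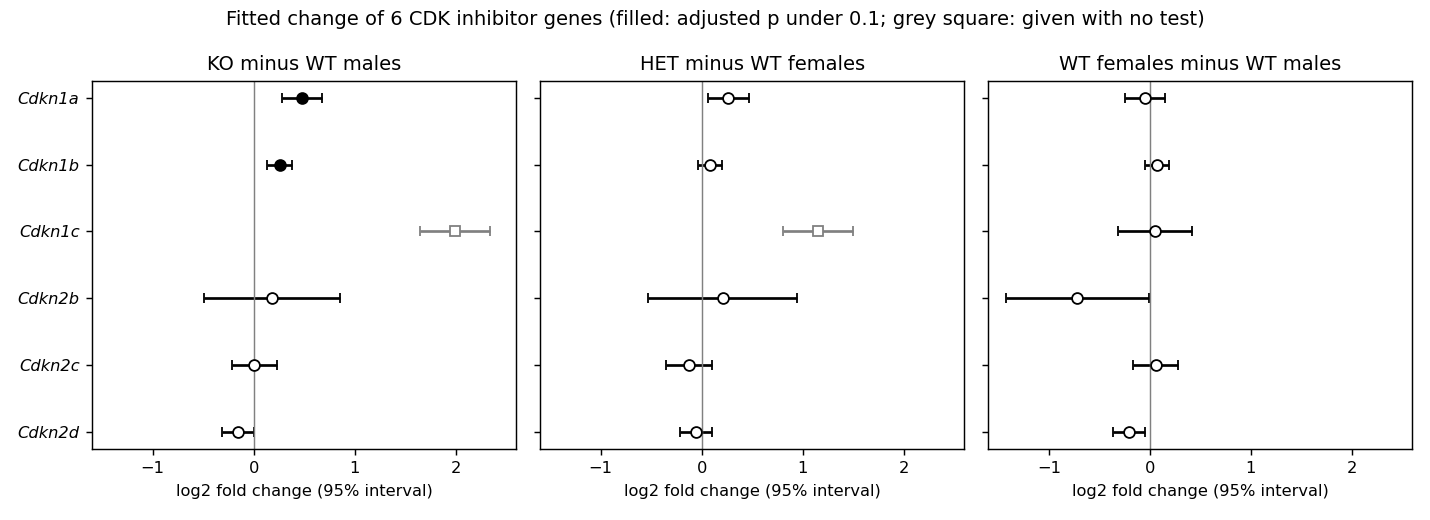
Fitted log2 fold change with its 95% interval for the 6 fitted members in *Kdm5c*-KO against WT males, *Kdm5c*-HET against WT females and WT females against WT males. Filled points mark q under 0.1, which held for *Cdkn1a* (0.48) and *Cdkn1b* (0.26) in males, and grey squares mark *Cdkn1c* (1.99 and 1.15), given with no test.

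In *Kdm5c*-HET females, none of the 5 members tested was called. 1 of them, *Cdkn1a*, had an unadjusted p-value under 0.05, and DESeq2 also called none. Over all genes tested, 0.481% were called higher and 0.028% lower in this comparison. Leaving out *Cdkn1c*, the median Log2FC of the 5 fitted members was 0.08, the value of *Cdkn1b*, against a median of -0.00 over all genes tested. *Cdkn2c* and *Cdkn2d* were below 0.

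*Cdkn1a* was at 34.5, 36.9, 32.2 and 40.3 CPM in WT females 1D, 3D, 4E and 5E, and at 44.2, 42.4, 42.8 and 43.2 CPM in *Kdm5c*-HET females 6E, 8E, 9D and 9E. The groups did not overlap, which held in this direction for 2.78% of all genes tested. The *Kdm5c*-HET values lay closer together than counting error alone would give, with a coefficient of variation of 1.73% against 3.06% from counting. The means were 36.0 ± 3.46 CPM and 43.2 ± 0.747 CPM (SD, n = 4 each), a 1.20-fold difference. The Log2FC was 0.26 (SE 0.0961, 95% interval 0.06 to 0.46), which did not pass over all genes (unadjusted 0.0129, adjusted p = 0.534, edgeR). The exact two-sided permutation test on *Cdkn1a* alone gave its smallest possible p-value, 0.0286, which only restates the lack of overlap.

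*Cdkn1b* was at 65.3, 66.4, 66.5 and 72.8 CPM in WT females and at 75.3, 70.4, 67.4 and 73.1 CPM in *Kdm5c*-HET. WT female 5E lay within the range of the mutants, so the groups overlapped. The means were 67.8 ± 3.42 CPM and 71.6 ± 3.44 CPM (SD, n = 4 each), and the Log2FC was 0.08 (95% interval -0.04 to 0.20, edgeR q = 0.944).

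The INK4 genes overlapped between *Kdm5c*-HET and WT females. *Cdkn2d* was at 44.6, 40.9, 43.6 and 36.5 CPM in WT females and at 41.6, 37.0, 37.6 and 42.8 CPM in *Kdm5c*-HET, with a Log2FC of -0.06 (95% interval -0.22 to 0.10, edgeR q = 0.98). Its Log2FC ranged from -0.12 to -0.02 when 1 animal at a time was left out. *Cdkn2c* was at 9.16, 9.35, 8.67 and 7.58 CPM in WT females and at 8.48, 8.01, 6.77 and 8.65 CPM in *Kdm5c*-HET, with a Log2FC of -0.13 (95% interval -0.35 to 0.10, edgeR q = 0.967). With 1 animal left out at a time, the Log2FC of *Cdkn2c* ranged from -0.19 to -0.06. *Cdkn2b* was at 0.771, 0.616, 0.584 and 0.219 CPM in WT females and at 0.563, 0.595, 0.866 and 0.551 CPM in *Kdm5c*-HET, with a Log2FC of 0.21 (95% interval -0.53 to 0.95, edgeR q = 0.991).

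*Cdkn2a*, which is known to be kept silent in most young tissues, was near the limit of detection in every group. WT males 1E, 2D, 5D and 7D had 3, 9, 10 and 4 counts, and *Kdm5c*-KO males 2E, 3E, 4D and 6D had 1, 7, 2 and 4. WT females 1D, 3D, 4E and 5E had 0, 2, 8 and 0 counts, and *Kdm5c*-HET females 6E, 8E, 9D and 9E had 4, 2, 2 and 7. All groups overlapped. Exact two-sided permutation tests on its CPM gave p = 0.171 for *Kdm5c*-KO against WT males and p = 0.543 for *Kdm5c*-HET against WT females. At this depth, small differences of *Cdkn2a* between groups could not be resolved.

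The difference between the male and the female response was tested as the sex by genotype interaction. None of the 5 members tested passed, against 0.0392% of all genes tested, and DESeq2 also called none. *Cdkn1b* alone had an unadjusted p-value under 0.05, with a male response 0.18 above the female one on the log2 scale (SE 0.0821, 95% interval 0.01 to 0.35, unadjusted 0.0442, adjusted p = 0.777, edgeR). For *Cdkn1a* the difference was 0.22 (95% interval -0.07 to 0.50, edgeR q = 0.832), and 0.11 without WT male 1E. The call of *Cdkn1a* and *Cdkn1b* in males only is thus not shown to be a difference between the sexes. In CPM, the mutant mean of *Cdkn1a* exceeded the WT mean by 14.7 in males and 7.18 in females, and that of *Cdkn1b* by 12.5 and 3.80.

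**Figure D3:**
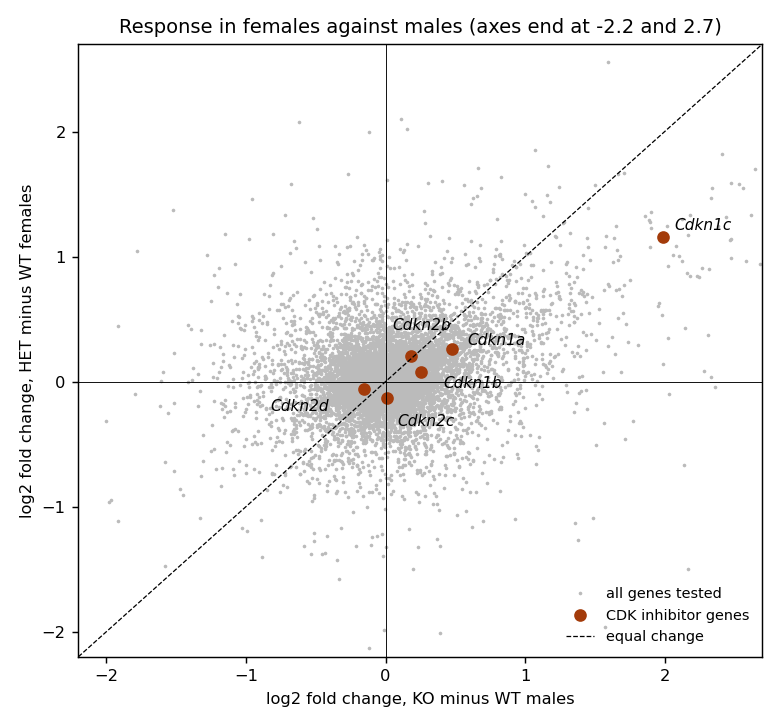
Log2 fold change of *Kdm5c*-HET against WT females (vertical) against that of *Kdm5c*-KO against WT males (horizontal) for all genes tested (grey, axes cut to the range shown) and the 6 fitted members (red), with the line of equal change dashed. *Cdkn1c* lies at 1.99 in males and 1.15 in females, *Cdkn1a* at 0.48 and 0.26, and *Cdkn1b* at 0.26 and 0.08.

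The WT animals of both sexes were compared with each other, a contrast that the choice of the family did not use. None of the 6 members tested was called, against 5% of all genes tested, and DESeq2 also called none, while 2 members, *Cdkn2b* and *Cdkn2d*, had an unadjusted p-value under 0.05. *Cdkn1c* differed by 0.05 on the log2 scale (95% interval -0.31 to 0.41, edgeR q = 0.915), *Cdkn1a* by -0.05 (edgeR q = 0.845), *Cdkn1b* by 0.07 (edgeR q = 0.544) and *Cdkn2c* by 0.06 (edgeR q = 0.83).

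*Cdkn2d* was lower in every WT female than in every WT male, which held for 5.32% of all genes tested. The mean was 41.4 ± 3.65 CPM in WT females and 47.8 ± 1.31 CPM in WT males (SD, n = 4 each). The Log2FC was -0.21 (SE 0.0763, 95% interval -0.36 to -0.05, unadjusted 0.0143, adjusted p = 0.157, edgeR). The exact two-sided permutation test on *Cdkn2d* alone gave 0.0286, which only restates the lack of overlap. The mean of *Cdkn2b* was 0.548 ± 0.234 CPM in WT females and 0.923 ± 0.369 CPM in WT males, and the groups overlapped (Log2FC -0.72, 95% interval -1.43 to -0.00, unadjusted 0.0486, adjusted p = 0.274, edgeR).

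In the order of group means, *Cdkn1a* ran from *Kdm5c*-KO through *Kdm5c*-HET and WT males to WT females, and *Cdkn1b* from *Kdm5c*-KO through *Kdm5c*-HET and WT females to WT males. For *Cdkn1a* the neighbours below *Kdm5c*-KO overlapped, and for *Cdkn1b* all neighbours overlapped. *Cdkn2d* ran from WT males through *Kdm5c*-KO and WT females to *Kdm5c*-HET, and only its first neighbours did not overlap. The neighbours of *Cdkn2a*, *Cdkn2b* and *Cdkn2c* all overlapped.

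Within groups, *Cdkn1c* moved with the letter of the animal's label, an association noticed after the values were seen. The E animals had the higher mean in 4 of 4 groups, by 1.19-fold in WT males, 1.45-fold in *Kdm5c*-KO, 1.40-fold in WT females and 1.05-fold in *Kdm5c*-HET. With the group means fitted alongside, E exceeded D by 0.36 on the log2 scale (SE 0.0887, 95% interval 0.18 to 0.55, edgeR q = 0.0062). *Cdkn1c* was the only member called by letter, and 23.6% of all genes tested were called. *Cdkn2b* had its lower mean in the E animals in all 4 groups, but its coefficient of -0.53 (SE 0.239) did not pass (edgeR q = 0.136). The coefficient was 0.08 for *Cdkn1b* (edgeR q = 0.155), -0.09 for *Cdkn1a* (edgeR q = 0.372), 0.06 for *Cdkn2c* (edgeR q = 0.648) and -0.06 for *Cdkn2d* (edgeR q = 0.488).

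Within a letter, *Cdkn1c* was 3.40-fold higher in *Kdm5c*-KO than in WT males among D animals and 4.15-fold higher among E animals. In females it was 2.56-fold higher among D and 1.91-fold higher among E animals. *Cdkn1a* was 1.31-fold higher in *Kdm5c*-KO among D and 1.80-fold higher among E animals, and *Cdkn1b* 1.12-fold and 1.29-fold higher. The folds among E males rest on 1 WT animal, and those among D females on 1 *Kdm5c*-HET animal. With the letter as a covariate, *Cdkn1a* and *Cdkn1b* remained called in males (edgeR q = 0.00107 and q = 0.00815).

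**Figure D4:**
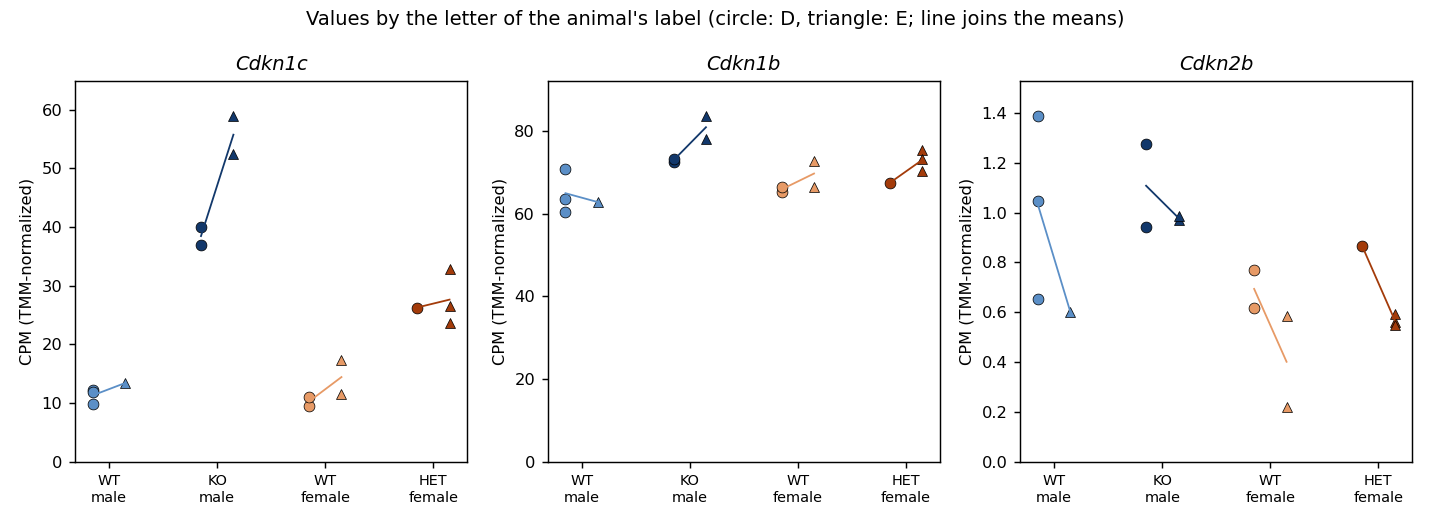
TMM-normalized CPM (linear axes from 0) of *Cdkn1c*, *Cdkn1b* and *Cdkn2b* in D animals (circles) and E animals (triangles) of each group, with lines joining the means. The line rises for *Cdkn1c* in 4 of 4 groups and for *Cdkn1b* in 3 of 4, and it falls for *Cdkn2b* in all 4.

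The biological coefficient of variation between animals of a group was largest among the fitted members for *Cdkn2b*, at 23.1%, followed by *Cdkn1c* at 15.8%. *Cdkn1a* (9.44%), *Cdkn2c* (9.27%) and *Cdkn2d* (7.58%) were near the median of all genes tested, 8.95%, and *Cdkn1b* was the least variable member at 5.92%. With the letter fitted, the value was lower for every fitted member and for the median of all genes tested, which was 7.72%. It was then 11.1% for *Cdkn1c* and 19.7% for *Cdkn2b*.

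Other genes of the cell cycle could be read only where a source paired their Ensembl identifier with a symbol, which was so for 10 of the 123 symbols in the lists. The pairs came from a table of genes called in these samples, so they are not independent evidence and the lists were not counted. *Cdk5*, a kinase of postmitotic neurons that does not drive the cell cycle, averaged 92.0 CPM in the WT males and 82.2 CPM in the *Kdm5c*-KO males (Log2FC -0.16, edgeR q = 0.032), and in females its Log2FC was -0.03 (edgeR q = 0.979). *Ccnd2*, the D-type cyclin of neural progenitors, had a Log2FC of 0.15 in males (edgeR q = 0.131) and 0.01 in females (edgeR q = 0.999). Of the 12 genes on the list of p53 and its targets, only the target *Phlda3* could be read. *Phlda3* was higher in *Kdm5c*-KO (23.7 against 14.7 CPM, Log2FC 0.68, edgeR q = 0.000269) and in *Kdm5c*-HET (17.6 against 12.7 CPM, Log2FC 0.47, edgeR q = 0.0473). A p53 response was not tested. *Cdk4*, *Cdk6*, *Cdk2*, *Ccnd1*, *Ccne1*, *Rb1* and *Mki67* were not analysed here.

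Markers of other cells were read in the male comparison in which *Cdkn1a* and *Cdkn1b* were called. They came from the same pairs with genes called in these samples, so their changes are not independent evidence. The choroid plexus genes *Ttr* and *Aqp1*, 2 of the 5 on their list, had Log2FC of -5.76 and -2.00 in males (edgeR q = 0.0643 and q = 0.0642). *Ttr* was at 0.277 to 202 CPM in the WT males, while in *Kdm5c*-KO it was at 1.59 to 2.21 CPM. The haemoglobin genes *Hba-a1* and *Hbb-bs*, 2 of the 3 on the red blood cell list, had Log2FC of -0.59 and -0.47 (edgeR q = 0.00131 and q = 0.0557). The neuronal gene *Rbfox3*, 1 of the 6 on its list, had a Log2FC of -0.19 (edgeR q = 0.0642). The astrocyte gene *Aqp4*, 1 of the 5 on its list, had a Log2FC of -0.24 and was not called (edgeR q = 0.115). None of these 6 was called in females. Apart from the exclusion of the *Ttr*-high animals, the part of these cells in the values of the CDK inhibitors was not tested.

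For each fitted member, the genes closest to it were taken as those with the highest Pearson r over the 16 animals, after the mean of each group was subtracted, among 1014 genes with a symbol. These points share libraries and the letter of the label, and the candidates were all called by the authors in 1 sex or the other, so r is only a description. The closest to *Cdkn1c* were *Efs* (r = 0.90), *Acvr2a* (r = 0.84) and *Phf6* (r = 0.83), and to *Cdkn1b* they were *Epha7*, *Zfp609* and *Gpr21* (r = 0.83, 0.82 and 0.82). For *Cdkn1a* they were *Nrip1* (r = 0.77), *Grin3a* (r = 0.75) and *Grm3* (r = 0.74), of which *Grin3a* fell to r = 0.37 without the 2 animals farthest from the median. The closest to *Cdkn2d* were *Uqcr11*, *Ndufs6* and *Ndufa2* (r = 0.88 each), which encode subunits of the mitochondrial respiratory chain. *Cdkn2b* was closest to *Pnma3*, *Arfgef2* and *Ahcyl* (r = 0.87, 0.85 and 0.83), and *Cdkn2c* less closely to *Pth1r*, *Ltb4r2* and *Syde2* (r = 0.68, 0.67 and 0.64), of which *Pth1r* fell to r = 0.46, *Ltb4r2* to r = 0.41 and *Syde2* to r = 0.59 without the 2 farthest animals.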

How the data were processed

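Poly(A)-enriched RNA from 16 P6 forebrains (4 animals per group) was sequenced as paired-end reads with a directional kit. The authors mapped reads to mm10 with STAR 2.5.3a, removed duplicates, kept unique reads and counted them per gene with featureCounts (Subread 1.5.0), per the paper's methods and the submitters' processing notes. The authors deposited raw counts without normalization. The paper's methods state a single batch for RNA and libraries.

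Tests used edgeR 4.0.16 under R 4.3.3. The filter was filterByExpr (17866 of 54219 kept), with TMM normalization and a glmQLFit model with 1 mean per group over all 16 animals. Contrasts were tested with glmQLFTest and adjusted by the Benjamini-Hochberg method over all genes tested, with a threshold of 0.1. SEs were derived from the F statistic. Single genes were also compared by exact permutation of 4 animals against 4. The permutation p-value is given for *Cdkn2a* and for members not called in edgeR although their groups did not overlap. The edgeR p-values set a difference between groups against the spread between animals, estimated in the fit of all 16. Counting intervals cover counting error only, and the totals of 21513783 to 30063352 counts set the precision. The scripts were tested on simulated data.

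The members and lists were chosen with earlier results of these data known. Named genes were the members, the 3 genes most correlated with each among those paired with a symbol (log2 CPM, prior count 2), and listed genes with a call. *Ccnd2* was named whatever its result, and *Aqp4* outside this rule, as a paired marker. Alternatives were DESeq2 1.42.0, DESeq2 size factors, no filter, at least 10 counts in every animal, 1 sex at a time, the letter as a covariate, a threshold of 0.05 and leaving out each animal. The exclusions of WT males 2D and 5D and of the 6 animals with over 1000 *Ttr* counts, and the letter coefficients, were added after the data were seen. 1 listed marker gene is not reported here.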

Additional observations from a re-analysis of the deposited data

Results flagged for a closer look

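Within groups of 4 animals, a value was marked where its gap to the nearest other animal, as a share of the group's range, was above Dixon's 95% critical value. Of 68 groups of values examined, 6 were marked, and chance marks about 1 in 20. *Cdkn1b* in WT female 5E was at 72.8 CPM against 65.3 to 66.5 in the others (ratio 0.836). *Cdkn2b* in *Kdm5c*-KO 6D was at 1.27 CPM against 0.942 to 0.988 (ratio 0.861), and in *Kdm5c*-HET 9D at 0.866 CPM against 0.551 to 0.595 (ratio 0.861). *Cdkn2d* in WT male 5D was at 49.7 CPM against 46.9 to 47.3 (ratio 0.874), and in *Kdm5c*-KO 2E at 35.7 CPM against 44.7 to 45.9 (ratio 0.879). *Ccnd2* in *Kdm5c*-KO 4D was at 142 CPM against 158 to 160 (ratio 0.889).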

How the results depend on the processing

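Of 563 pairs of a member's fold change and an alternative, 539 kept their direction and, where tested, their side of the threshold, 2 fell short of it, 3 newly passed it, 18 changed sign and 1 moved by more than its error. *Cdkn1c* had no test in the mutant comparisons, and the threshold of 0.05 leaves the fold changes as they are. The male count of 2 called members became 0 without the 6 animals high in *Ttr* (*Cdkn1a* q = 0.117, *Cdkn1b* q = 0.126, edgeR), and stayed 2 without WT males 2D and 5D alone. Over all alternatives in males, the Log2FC was 0.37 to 0.55 for *Cdkn1a* (q from 2.03e-08 to 0.117) and 0.21 to 0.31 for *Cdkn1b* (q from 0.00125 to 0.126). For *Cdkn1c* it was 1.86 to 2.09 in males and 0.87 to 1.35 in females, with 0.87 again from the exclusion of the *Ttr*-high animals. The causes of these changes were not tested.

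With no filter on low counts, 1 member was called in females (*Cdkn1a*, q = 0.0572) and 1 in the WT sex contrast (*Cdkn2d*, q = 0.0971). Leaving out 1 animal at a time gave 0 to 1 calls in the WT sex contrast, the call being *Cdkn2d* without *Kdm5c*-KO 2E (q = 0.085). With the letter as a covariate, the Log2FC of *Cdkn2c* in males was -0.0098 and that of *Cdkn1c* in the WT sex contrast -0.052. Leaving out 1 animal at a time, these ranged from -0.053 to 0.083 and from -0.16 to 0.16. The ranges were -0.036 to 0.42 for *Cdkn2b* in females and -0.23 to 0.23 for *Cdkn2b* in the interaction. In the WT sex contrast they were -0.15 to 0.021 for *Cdkn1a* and -0.0063 to 0.13 for *Cdkn2c*. Without the *Ttr*-high animals, *Cdkn2b* was at 0.81 in females and at -0.75 in the interaction. *Cdkn2b* had no value with at least 10 counts in every animal, and the interaction could not be fitted in 1 sex. Depth limited *Cdkn2a* and *Cdkn2b*. The number and letter of a label together name 1 animal and no such name recurs between groups, so animals were not paired, and the letter alone was fitted as a covariate.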
